A study of Mus musculus with 3 samples.

Results

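The genes described here encode subunits of the mitochondrial respiratory chain and of ATP synthase. They were chosen by name: symbols beginning with Ndufa, Ndufb, Ndufc, Ndufs or Ndufv and a number, Ndufab1, and symbols beginning with Uqcr, Cox4 to Cox8, Atp5 or mt-. The rule took 95 of the 32285 genes in the counts. Of these, 82 are encoded in the nucleus (37 in complex I, 8 in complex III, 20 in complex IV and 17 in ATP synthase, called complex V) and 13 in the mitochondrial genome. Ndufa4 and Ndufa4l2 were placed with complex IV, to which the protein of Ndufa4 is now assigned. Ndufb1-ps, a member by name, is annotated as a non-coding RNA.

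The study sequenced single mouse bone marrow cells as 3 groups with 1 library each, so no difference between groups has a replicate check and no test between groups was made. LSK are lineage-negative cells positive for Sca-1 and Kit, a gate that holds the blood stem cells, and LK are lineage-negative, Kit positive progenitors. TBM is total bone marrow, mostly maturing and mature blood cells. Marrow came from several bones (femora, tibiae, hips and spines). For the lineage-negative groups, lineage cells were removed with antibodies to CD5, CD8a, CD11b, CD45R, Ly-6C, Ly-6G and Ter119. TBM held such cells: Ly6g, which encodes Ly-6G, was detected in 29.3% of TBM cells, against 0% in LSK and 0.141% in LK. The labels give no strain, age, sex, genotype, treatment or number of mice, and do not say whether Sca-1 positive cells were kept out of LK.

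The respiratory chain passes electrons from NADH and succinate to oxygen and pumps protons, and ATP synthase uses the proton gradient to make ATP. Complexes I, III, IV and V are built from both genomes: the mitochondrial genome supplies a few core subunits and the nucleus the rest. Blood stem cells are known for low reliance on oxidative phosphorylation, neutrophils for living largely on glycolysis, and red cells for discarding their mitochondria as they mature.

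After filtering, 1081, 3542 and 4246 cells remained in LSK, LK and TBM, where the labels state 1070, 3441 and 3984 sorted cells and the files hold 1091, 3560 and 4317 barcodes. The kept cells held 11794644, 50022742 and 22088460 UMIs (unique molecular identifiers, 1 per captured transcript), with medians of 9632, 13332.5 and 3339.5 per cell. No upper limit on mitochondrially encoded UMIs was set. Kit had 81.5, 34.7 and 7.65 CPM (a gene's UMIs scaled to a fixed library total), and Ly6a, which encodes Sca-1, had 100.4, 7.74 and 31.0. The libraries shared 38 cell barcodes, which were kept. Scrublet called 10, 4 and 65 doublets, in LK 0.113% of barcodes, too few for the caller to have worked there, so undetected doublets remain. Free RNA was not corrected for. Intervals are at 95% and cover counting error only.

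To show the regulatory sequence of the members, 3 promoters of complex IV subunits are given, as the RefSeq table for build GRCm38.p6 has them on the gene's strand, each ending at the last base before the annotated start. Cox6a1 and Cox6b1 are the common forms of their subunits, and Cox6b2, best known from testis, is an alternative form whose level varied widely among the populations below. Capitals mark matches, on either strand, of the motif of nuclear respiratory factor 1 (NRF1), a palindrome with 1 free base, and of the ETS motif (CCGGAAG), bound by the family to which GABP belongs. The windows lie on the minus strand at chr5:115348959-115349208, chr7:30626115-30626364 and chr7:4753095-4753344, in this order.
Cox6a1: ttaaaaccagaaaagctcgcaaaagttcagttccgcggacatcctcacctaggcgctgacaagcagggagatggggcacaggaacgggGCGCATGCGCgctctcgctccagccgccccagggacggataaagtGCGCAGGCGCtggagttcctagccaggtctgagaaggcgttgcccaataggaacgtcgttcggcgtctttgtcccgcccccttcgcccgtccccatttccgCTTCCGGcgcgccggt
Cox6b1: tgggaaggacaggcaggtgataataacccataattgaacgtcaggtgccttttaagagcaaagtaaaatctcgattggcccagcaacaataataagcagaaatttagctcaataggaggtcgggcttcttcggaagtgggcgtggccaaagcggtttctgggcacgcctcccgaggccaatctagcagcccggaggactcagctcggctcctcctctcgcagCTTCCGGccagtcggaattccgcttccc
Cox6b2: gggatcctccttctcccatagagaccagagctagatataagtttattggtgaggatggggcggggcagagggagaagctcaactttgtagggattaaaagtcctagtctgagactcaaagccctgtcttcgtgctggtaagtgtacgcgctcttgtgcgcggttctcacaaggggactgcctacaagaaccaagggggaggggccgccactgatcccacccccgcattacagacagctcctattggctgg
The window of Cox6a1 held 2 NRF1 matches and 1 ETS match, that of Cox6b1 held 1 ETS match, and that of Cox6b2 held none of the motifs searched. The windows of Atp5g1, Cox5a and Ndufb5, which are common members, held none either.

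Promoters were found for 65 of the 82 nuclear members, as windows of 300 bases from 250 before to 50 after the start. NRF1 letters were in 23.1% of them and in 5.19% of all promoters of that length, and ETS letters were in 23.1% against 9.93%. The YY1 letters AAGATGGC were in 13.8% against 3.19%, and the letters AAGGTCA of the estrogen-related receptors were in 10.8% against 5.38%. All were searched on both strands, and overlapping matches were allowed. At least 1 of the 4 motifs was in 35 of the 65 promoters. A match describes letters only.

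By library, the nuclear members together took 2.57%, 3.22% and 2.20% of the UMIs of LSK, LK and TBM. The mitochondrially encoded members took 2.26%, 2.18% and 1.63%. The nuclear share was highest in LK, while the mitochondrially encoded share of LSK and LK differed little. For each mitochondrially encoded UMI, the number of nuclear UMIs was 1.14 in LSK (1.13 to 1.14), 1.48 in LK (1.47 to 1.48) and 1.35 in TBM (1.34 to 1.36). The order of LK and TBM turned when each cell was weighted equally, where the log2 ratio of LK over TBM in this balance was -0.10 (from 0.13 pooled). Since the kit tags each transcript once at its 3′ end, UMIs were compared between genes without dividing by length.

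The balance differed by complex. In LSK, LK and TBM, complex I had 2.06, 2.39 and 2.44 nuclear UMIs for each mitochondrially encoded UMI, complex III had 1.15, 1.47 and 1.42, and complex V had 1.51, 1.90 and 1.77. Complex IV was the only one of the 4 with more mitochondrially encoded than nuclear UMIs in each library, at 0.632, 0.879 and 0.767. In each of the 4 complexes the ratio was lower in LSK than in the other libraries.

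By mean CPM over the libraries, the 2 most abundant nuclear members of each complex are given first, in the order LSK, LK, TBM, and their rank differed between libraries. In complex V they were Atp5b, the catalytic beta subunit of ATP synthase, with 1021, 1433 and 637 CPM, and Atp5l, a membrane subunit, with 666, 843 and 664 CPM. In complex IV they were Cox4i1, a structural subunit, with 910.1, 1263 and 874 CPM, and Cox8a with 860.1, 1012 and 795 CPM. Atp5b had the highest nuclear level in LSK and LK and Cox4i1 in TBM. Ndufa4 had 863, 1073 and 463 CPM. In complex III they were Uqcrh, the hinge subunit at cytochrome c1, with 603, 606 and 452 CPM, and Uqcrb with 491, 670.2 and 357 CPM. In complex I they were Ndufb1-ps with 427, 413 and 513 CPM and Ndufa13, an accessory subunit, with 342, 373 and 358 CPM, although Ndufb8 was above Ndufa13 in LK (406 CPM) and Ndufa3 and Ndufb7 were in TBM (375 and 366 CPM). In LK, nuclear members with UMIs ran from 1.12 CPM for Cox7a1 to the level of Atp5b. Cox7b2, Cox8b, Cox8c and Ndufa4l2 had 0 UMIs in all 3 libraries, where 3 UMIs would be 0.254, 0.0600 and 0.136 CPM.

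Among the mitochondrially encoded members, mt-Atp6, the proton channel subunit of ATP synthase, was the highest with 5551, 5547 and 3721 CPM. Core subunits of complex IV followed, mt-Co3 with 4642, 4568 and 3489 CPM and mt-Co1, which holds the oxygen-reducing site, with 4259, 3290.4 and 3261 CPM. Cytochrome b of complex III, mt-Cytb, came next with 2414, 2412 and 1518 CPM, above the third complex IV gene, mt-Co2, with 2006, 2089 and 1424 CPM. Of the complex I genes, mt-Nd1 lay near mt-Co2, below it in LSK and LK and above it in TBM: mt-Nd1 had 1732, 2057 and 1437 CPM, mt-Nd4 1074, 1102 and 853 CPM, mt-Nd2 485, 462 and 313 CPM, mt-Nd5 181, 132 and 106 CPM and mt-Nd3 162, 109 and 109 CPM. Lowest were mt-Nd4l with 58.6, 49.6 and 23.2 CPM, mt-Atp8 with 45.7, 16.5 and 16.3 CPM and mt-Nd6 with 7.97, 4.36 and 3.58 CPM. These genes are transcribed as long shared precursors, and their captured levels spanned the range from mt-Nd6 to mt-Atp6 in every library. The part of capture at the 3′ end in this spread was not tested.

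LSK had lower levels than LK of nearly all nuclear members. The summed nuclear log2 ratio of LSK over LK was -0.32 (-0.33 to -0.32), and the complexes were alike, with -0.30 for complex I, -0.34 for III, -0.34 for IV and -0.33 for V. Higher in LSK were 6 of the 78 nuclear members with UMIs: Ndufa3, Ndufb1-ps, Cox4i2, Cox6a2, Cox7a1 and Cox7a2l, of which 3 stayed above 0 when the libraries were scaled by size factors. Among the lowest ratios were Cox5a, a structural subunit of complex IV (376 and 694 CPM, log2 ratio -0.88), Atp5g1, 1 of 3 genes for the membrane ring of ATP synthase (446 and 812 CPM, -0.86), and Cox6b2 (64.9 and 108 CPM, -0.74). Cox7a2l, which takes part in joining complexes III and IV into supercomplexes, had 542 and 406 CPM (0.41). The summed mitochondrially encoded log2 ratio was 0.05, and -0.34 with size factors.

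One member, mt-Atp8, was at least 2-fold apart between LSK and LK (log2 ratio 1.47), 1 of 91 measured with at least 20 UMIs, where 23.7% of all genes were that far apart. The median of all genes was 0.34. Size factors, which moved that median to -0.04, put 9 members at least 2-fold apart, against 19.3% of all genes.

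LK had higher levels than TBM of most members. The summed log2 ratio of LK over TBM was 0.55 for the nuclear members and 0.42 for the mitochondrially encoded ones. Above 0 were 69 of 78 nuclear and 13 of 13 mitochondrially encoded members, and 53 and 8 with size factors. The nuclear sums of complexes III and V were 0.71 and 0.68, and those of complexes I and IV were 0.43 and 0.48. The plot of member ratios by complex shows this spread.

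**Figure D1:**
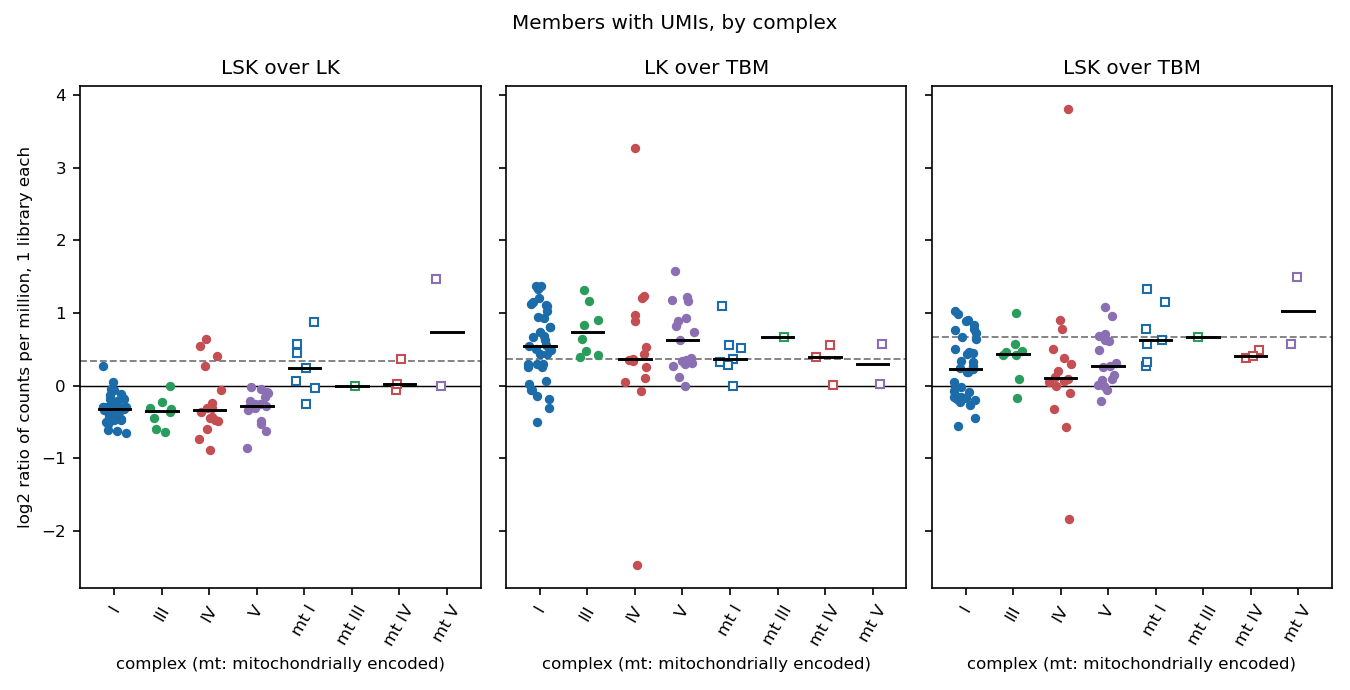
Log2 ratio of CPM for each member with UMIs, by complex and library pair (filled circles nuclear, open squares mitochondrially encoded, short black lines medians, dashed lines the median of all genes with at least 20 UMIs). In LSK over LK, 6 of 78 nuclear members lie above 0, and the farthest nuclear points of complex IV in the other pairs are Cox4i2 and Cox6a2.

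At least 2-fold apart between LK and TBM were 20 of the 91 members, 19 of them higher in LK, against 43.9% of all genes (27.3% higher and 16.7% lower). Besides Cox4i2 (4.36 and 0.453 CPM, log2 ratio 3.27), the largest ratios were in Atp5g1 (812 and 271 CPM, 1.58), the acyl carrier protein Ndufab1 (307 and 118 CPM, 1.38) and the accessory complex I subunits Ndufa12 (304 and 117 CPM, 1.37) and Ndufa9 (161 and 63.6 CPM, 1.34). The member at least 2-fold higher in TBM was Cox6a2, with 21.5 CPM there and 3.86 in LK (-2.48). Ndufa3, an accessory subunit of complex I, had 375 CPM in TBM and 266 in LK (-0.50). The calprotectin, globin and immunoglobulin genes held 21.8% of UMIs in TBM and 0.0170% in LK. Without them in the total, 5 members were at least 2-fold apart, against 39.0% of all genes, the nuclear sum was 0.20 and the median of all genes moved from 0.37 to 0.02.

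Between LSK and TBM the direction of the nuclear sum depended on the scale. The log2 ratio of LSK over TBM was 0.23 on total UMIs, -0.50 with size factors and -0.12 without the dominant genes. The mitochondrially encoded sum was 0.48, and -0.25 with size factors. At least 2-fold apart were 7 of 91 members, against 49.9% of all genes. Besides Cox4i2 (3.81), those higher in LSK were mt-Atp8 (1.49), mt-Nd4l (1.33), mt-Nd6 (1.16), Atp5g2 (1.08) and Ndufa12 (1.03), and Cox6a2 was lower (-1.83).

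To see which cells carried these levels, the cells of all libraries were clustered together without the member genes, which gave 21 clusters. A cluster was named only where markers of a cell type led it, and is otherwise given by its leading genes. Cells of 1 library in 1 cluster form a population, and 21 populations of at least 50 cells were described. One of them, 58 LK cells led by Gm26917, Lars2 and Gm42418 with a median of 915 UMIs, is given near the end, which leaves 20.

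**Figure D2:**
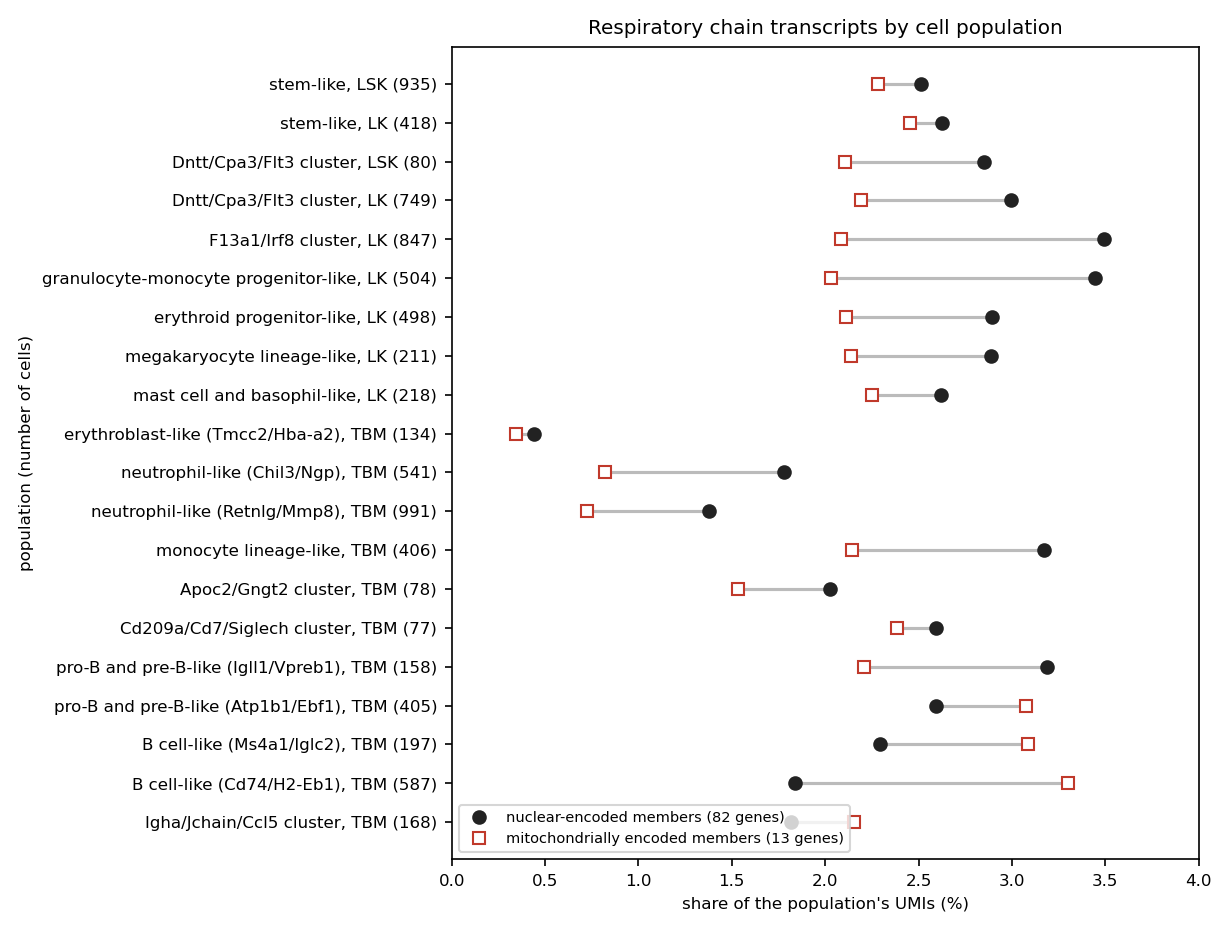
Share of UMIs, in percent, in the 82 nuclear (filled circles) and the 13 mitochondrially encoded members (open squares) for 20 populations, with cell numbers in brackets. The mitochondrially encoded share is the larger in the Cd74-led and Ms4a1-led B cell-like, the Atp1b1-led pro-B and pre-B-like and the Igha/Jchain/Ccl5 cells of TBM, and the nuclear share in the other 16.

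Across these populations the nuclear share ran from 0.440% to 3.49% and the mitochondrially encoded share from 0.345% to 3.30%, both lowest in the Tmcc2-led erythroblast-like cells. Without that population the nuclear share varied 2.53-fold and the mitochondrially encoded share 4.55-fold. The ratio of nuclear to mitochondrially encoded UMIs, pooled over cells, ran from 0.556 in the Cd74-led B cell-like cells to 2.16 in the Chil3-led neutrophil-like cells, and by medians over cells the Retnlg-led neutrophil-like cells were the highest, as given below. The summed levels of the 4 nuclear complexes followed each other, with Pearson correlations from 0.94 to 0.99 and Spearman correlations from 0.92 to 0.96 over 20 populations. For the nuclear against the mitochondrially encoded sum, they were 0.80 and 0.087 over the 20 populations. They were -0.77 and -0.78 over the 9 LSK and LK populations, and 0.82 and 0.56 over the 11 TBM populations, Tmcc2-led cells included. These are descriptions, since populations of 1 library share its depth and preparation.

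The cells called stem-like here are the stem and multipotent progenitor-like cluster. It held 935 of the 1081 LSK and 418 of the 3542 LK cells, so it is not a group of stem cells alone. In the stem-like cells of LSK, nuclear and mitochondrially encoded members took 2.51% and 2.28% of UMIs, a ratio of 1.10. In the stem-like cells of LK they took 2.63% and 2.45% (1.07). The cluster led by Dntt, Cpa3 and Flt3 had 2.85% and 2.11% in LSK (1.35), and its ratio in LK was 1.37. The granulocyte-monocyte progenitor-like LK cells had 3.44% and 2.03% (1.70), and the LK cluster led by F13a1, Irf8 and Ms4a6c had 3.49% and 2.09% (1.67). Those last populations had the highest nuclear shares of the 9 in LSK and LK.

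The nuclear members differed less between the gates within a cluster than between the libraries as a whole. For stem-like cells the summed nuclear log2 ratio of LSK over LK was -0.06 (-0.07 to -0.05) and the mitochondrially encoded one -0.11. For the Dntt/Cpa3/Flt3 cluster they were -0.07 and -0.06. In both clusters as a whole, mt-Atp8, a small subunit of ATP synthase, was over 2-fold higher in LSK, with 45.2 against 20.7 CPM in stem-like cells (log2 ratio 1.12) and 45.1 against 18.5 CPM in the Dntt/Cpa3/Flt3 cluster (1.28, 0.83 to 1.72). It was the only one of the measured members, 76 nuclear and 13 mitochondrially encoded, at least 2-fold apart in stem-like cells, where 5.84% of all genes were higher in LSK and 0.561% lower. In the Dntt/Cpa3/Flt3 cluster, Cox6a2 (2.63) and Cox6b2 (-1.43) were also at least 2-fold apart, against 6.44% of all genes higher and 1.46% lower.

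The Dntt/Cpa3/Flt3 cluster was made up differently in the gates. When cells over 10% of mitochondrially encoded UMIs were left out before clustering, 44 of its 80 LSK and 26 of its 749 LK cells fell in a lymphoid-primed progenitor-like cluster, and 26 and 606 in an early myeloid progenitor-like one. In the lymphoid-primed cells Cox6a2 had 108 and 103 CPM in LSK and LK, a log2 ratio of 0.07 (-0.61 to 0.79). In the early myeloid cells it had 7.29 and 5.52 CPM, a log2 ratio of 0.40 (-1.54 to 1.86). A 2-fold difference in Cox6a2 was thus seen in the whole cluster and in neither of these parts. Cox6b2 had log2 ratios of -0.49 (-1.69 to 0.76) in the lymphoid-primed and -1.66 (-2.42 to -0.99) in the early myeloid cells, and mt-Atp8 0.16 (-1.20 to 1.69) and 1.54 (0.91 to 2.12). This split was made after the values were seen and leaves under 50 cells in 3 of its 4 groups.

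Ndufa3, mt-Nd3 and mt-Nd5 had log2 ratios of 0.48, 0.69 and 0.39 in stem-like cells and 0.52, 0.50 and 0.59 in the other cluster.

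Transcript length and the LSK over LK ratio were correlated in opposite directions among the members and among all genes compared. Over 87 members, the Spearman correlation of length with the LSK over LK ratio in stem-like cells was -0.30, and over 6528 genes it was 0.23. Its part in the difference was not tested. The mt-Atp8 gene overlaps mt-Atp6, which had a log2 ratio of -0.15 in stem-like cells. Whether the UMIs counted for mt-Atp8 reflect the level of the transcript that carries it was not tested.

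Relative to stem-like LSK cells, granulocyte-monocyte progenitor-like LK cells had 72 of 77 measured nuclear members higher, with a summed log2 ratio of 0.45 (0.45 to 0.46). The median of all genes in that pair was -0.51. At least 2-fold higher were Cox5a (803 and 343 CPM) and Atp5g1 (892 and 416 CPM), 2 members, against 4.43% of all genes. At least 2-fold lower were 2 nuclear members, Cox4i2 and Cox7a1, against 31.4%. Cox7a1 rested on 7 and 14 UMIs, and the interval of its log2 ratio (-1.06, -2.61 to 0.34) spans 0. Cox7a2l had 343 and 560.0 CPM (-0.71). Of 13 mitochondrially encoded members 1 was higher and 2 were at least 2-fold lower, mt-Atp8 (-1.71) and mt-Nd6 (-1.29), and the sum of the 13 was -0.17. In the F13a1/Irf8 cluster the sums over stem-like LSK cells were 0.48 and -0.13.

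Erythroid progenitor-like LK cells had 2.90% and 2.11%, and a nuclear sum 0.20 above stem-like LSK cells on the log2 scale. By medians over cells the nuclear shares lay closer, at 2.47% in these cells and 2.38% in stem-like LSK cells. Of 76 measured nuclear members 2 were at least 2-fold higher, against 3.46% of all genes: Atp5g1 (917 and 416 CPM) and Cox6b2 (234 and 66.5 CPM). Cox4i2 was lower, with 2 UMIs there, where 22.0% of all genes were at least 2-fold lower. Megakaryocyte lineage-like LK cells had 2.89% and 2.14%, and mast cell and basophil-like LK cells had 2.62% and 2.25%.

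The Tmcc2-led erythroblast-like cells of TBM carried the lowest shares, 0.440% and 0.345%. Compared with erythroid progenitor-like LK cells, the nuclear sum of the Tmcc2-led cells was 6.58-fold and the mitochondrially encoded sum 6.13-fold lower. All 75 measured nuclear members were at least 2-fold lower, against 77.7% of all genes. Cytosolic ribosomal protein genes took 1.23% of UMIs in the Tmcc2-led cells and 33.3% in the progenitor-like cells, so that nuclear members numbered 35.6 and 8.70 per 100 ribosomal UMIs. The part of globin UMIs in these shares was not tested.

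Within the Tmcc2-led cells the members differed. Atp5g2 and Atp5g1, genes for the membrane ring, had 801 and 917 CPM in erythroid progenitor-like cells and 10.2 and 13.6 CPM in the Tmcc2-led cells (log2 ratios -6.29 and -6.07). Ndufab1 (277 and 6.81 CPM, -5.35) and Ndufs8, a core subunit that carries iron-sulfur clusters (194 and 5.67 CPM, -5.10), followed. In the Tmcc2-led cells, Atp5g2, Atp5g1, Ndufab1 and Ndufs8 rest on 9, 12, 6 and 5 UMIs, so their order is uncertain. At the other end were Ndufb9 (348 and 161 CPM, -1.11), Cox6a1 (508 and 197 CPM, -1.36) and Atp5l (692 and 253 CPM, -1.45). Of the mitochondrially encoded members, mt-Co1 was nearest to its progenitor level (2840.1 and 1388 CPM, -1.03), and mt-Atp6 had a log2 ratio of -3.03.

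**Figure D3:**
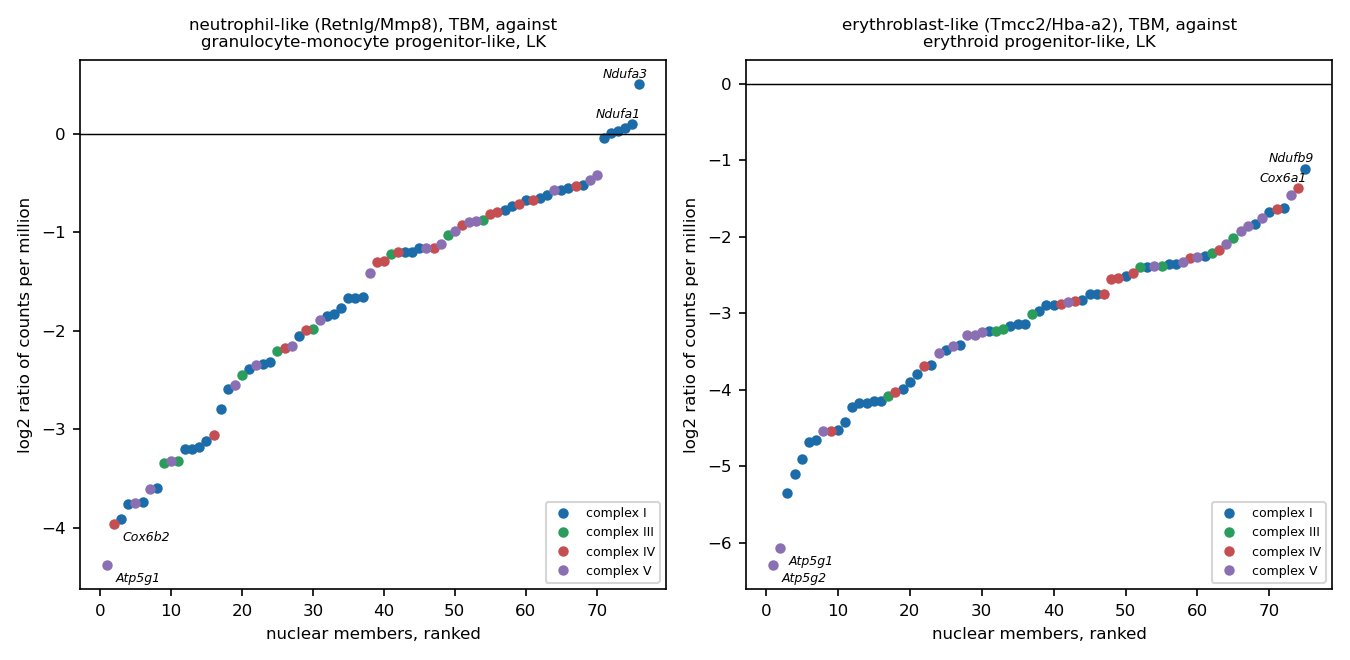
Log2 ratio of CPM of the nuclear members with at least 20 UMIs in the pair, ranked and coloured by complex, in Retnlg-led neutrophil-like TBM cells over granulocyte-monocyte progenitor-like LK cells and in Tmcc2-led erythroblast-like TBM cells over erythroid progenitor-like LK cells. The neutrophil ratios run from -4.38 for Atp5g1 to 0.50 for Ndufa3, and the erythroblast ratios run from -6.29 for Atp5g2 to -1.11 for Ndufb9.

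Neutrophil-like cells of TBM had the highest ratios of nuclear to mitochondrially encoded UMIs, on low shares of both. The Chil3-led cells had 1.78% and 0.823% (2.16), and the Retnlg-led cells had 1.38% and 0.725% (1.90). The order of these populations depended on how cells were summarised, which was compared after the values were seen. The medians over cells were 1.70% and 0.616% in the Chil3-led cells, a ratio of 2.76, and 1.32% and 0.326% in the Retnlg-led cells, a ratio of 4.04. Without the 6 Retnlg-led and 1 Chil3-led cells over 10% of mitochondrially encoded UMIs, the pooled ratios were 2.28 and 2.21. Compared with granulocyte-monocyte progenitor-like LK cells, the nuclear sum had a log2 ratio of -0.95 in the Chil3-led and -1.32 in the Retnlg-led cells, and the mitochondrially encoded sum -1.30 and -1.49. At least 2-fold lower were 39 of 75 nuclear members in the Chil3-led cells, against 52.1% of all genes, and 49 of 76 in the Retnlg-led cells, against 58.1%. The median of all genes was -1.09 and -1.37. Ribosomal protein genes took 5.85% and 3.51% of UMIs in these cells and 29.7% in the progenitor-like cells, and median depths were 7312, 2085 and 20018.5 UMIs. Their part was not tested.

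Grouped by role after the values were seen, the ratios of the Retnlg-led over the progenitor-like cells overlapped between groups. There, the 7 nuclear core subunits of complex I had a median log2 ratio of -2.39 (-3.60 to -1.66). The 30 accessory members of complex I had a median of -1.18 and a wider range, from -3.91 to 0.50. Complex III had a median of -2.10, complex IV of -1.18 and the F1 head of ATP synthase of -2.15. The 3 genes of the membrane ring had a median of -3.75, and the other 9 members of complex V -0.99.

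By gene, Atp5g1 had 892, 128 and 42.9 CPM in the progenitor-like, Chil3-led and Retnlg-led cells, and Atp5g2 had 709, 211 and 52.6 CPM. Ndufa12 had 320.4, 56.3 and 21.2 CPM and Ndufa9 166, 32.8 and 12.2 CPM. Each of these 4 was lowest in the Retnlg-led cells. In contrast, Ndufa3 had 294, 396 and 417 CPM, Ndufa1 216, 225 and 230.1 CPM, Ndufa13 369, 351 and 375 CPM, Ndufb7 405, 469 and 393 CPM and Ndufv3 216, 313 and 218 CPM. These accessory genes of complex I lay near or above their progenitor level. Ndufa3, Ndufa1 and Ndufv3 were also among the members least like the rest over 20 populations, with Spearman correlations to the summed other nuclear members of -0.21, 0.02 and 0.07, against 0.98 for Ndufb8.

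Monocyte lineage-like TBM cells had 3.17% and 2.14% of nuclear and mitochondrially encoded UMIs. Over the F13a1/Irf8 LK cluster, their nuclear sum had a log2 ratio of -0.14 and their mitochondrially encoded sum 0.04. Of 78 nuclear members 5 were at least 2-fold lower, against 18.6% of all genes, and 0 at least 2-fold higher, against 17.7%. Ndufb1-ps (817 and 438 CPM) and Ndufa3 (524 and 295 CPM) had the highest ratios. The Apoc2/Gngt2/Ear2 cluster had 2.02% and 1.53%, and the Cd209a/Cd7/Siglech cluster 2.59% and 2.38%.

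In the B lineage of TBM the balance turned toward the mitochondrially encoded members. The Igll1-led pro-B and pre-B-like cells, with 1048 CPM of the division genes Mki67 and Top2a, had 3.19% and 2.21% (1.44). The Atp1b1-led pro-B and pre-B-like cells, with 29.8 CPM of those genes, had 2.59% and 3.08% (0.843). The Ms4a1-led B cell-like cells had 2.29% and 3.09% (0.742), and the Cd74-led ones 1.84% and 3.30% (0.556, 0.547 to 0.566). In the Cd74-led over the Igll1-led cells, the nuclear sum had a log2 ratio of -0.79 and the mitochondrially encoded sum 0.58. At least 2-fold lower were 31 of 74 nuclear members, against 23.4% of all genes, and 12 of 12 measured mitochondrially encoded members were higher. The lowest ratios were in Atp5g3, another membrane ring gene (109 and 346 CPM, -1.66), Ndufc1 (93.4 and 271 CPM, -1.54) and Uqcrq (158 and 448 CPM). Median depth was 1840 and 6055.5 UMIs per cell, and its part was not tested.

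**Figure D4:**
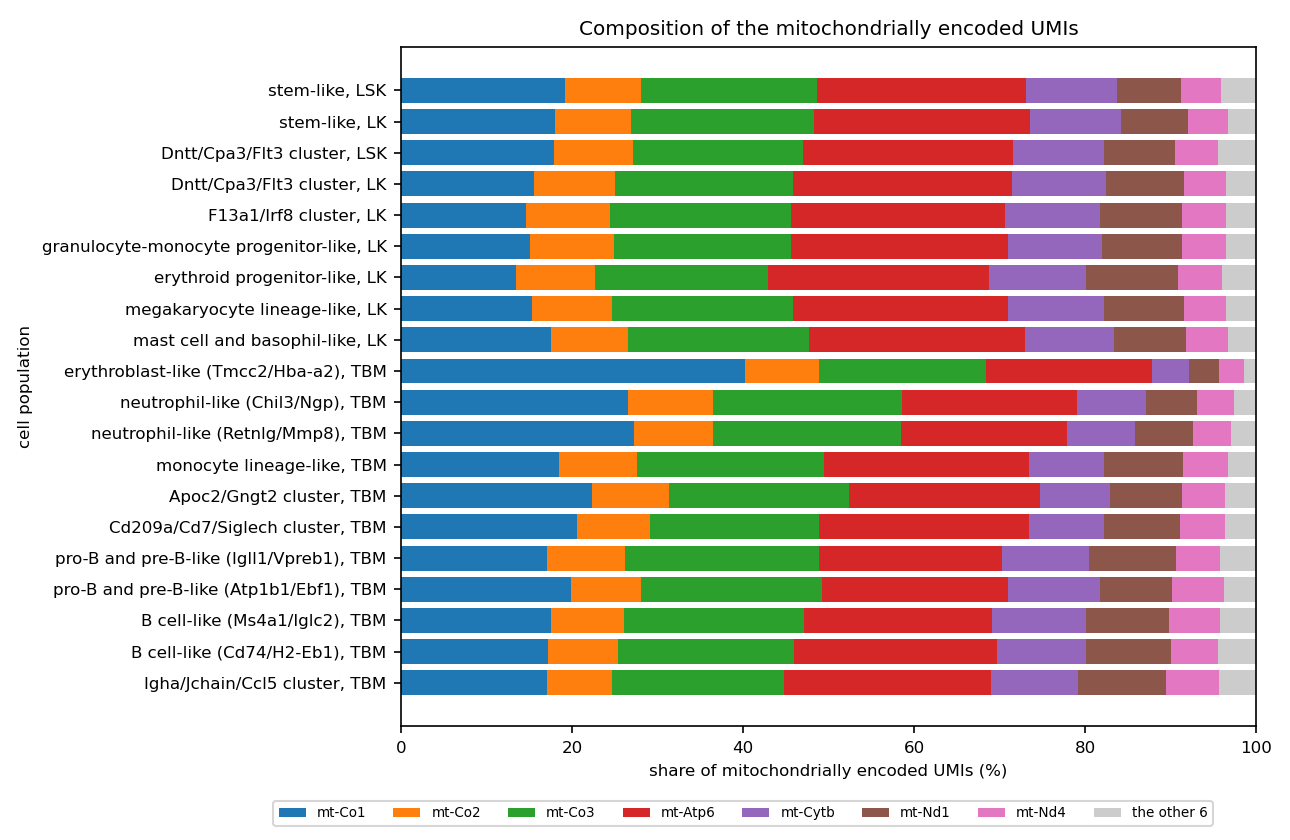
Make-up of the mitochondrially encoded UMIs, in percent, in 20 populations, each bar being 1 population and each colour 1 gene (grey, the other 6 genes together). The mt-Co1 share runs from 13.4% in erythroid progenitor-like LK cells to 40.2% in the Tmcc2-led erythroblast-like TBM cells.

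The make-up of the mitochondrially encoded UMIs does not depend on globin or calprotectin UMIs in the total. The share of mt-Atp6 ran from 19.4% to 25.8% and that of mt-Co3 from 19.5% to 22.6%. That of mt-Co1 varied more. It was 13.4% in erythroid progenitor-like LK cells, 14.6% in the F13a1/Irf8 cluster and 19.2% in stem-like LSK cells. In TBM it was 40.2% in the Tmcc2-led erythroblast-like cells, and 26.5% and 27.3% in the Chil3-led and Retnlg-led neutrophil-like cells. In the Tmcc2-led cells mt-Nd1 made up 3.49% and mt-Cytb 4.38%, against 10.7% and 11.4% in erythroid progenitor-like cells.

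Complex IV holds most of the known tissue isoforms. Cox6a2, the heart and skeletal muscle form of subunit VIa, was highest in the Cd209a/Cd7/Siglech cluster of TBM, at 695 CPM (626 to 769.8), where its common partner Cox6a1 had 502 CPM. It made up 58.0% of the UMIs of the pair (54.1 to 61.9). Of 39 cells of this cluster with a UMI of Siglech, a marker of plasmacytoid dendritic cells, 35 had a Cox6a2 UMI, and their level was 1529.7 CPM. Of 38 cells without one, 3 had a Cox6a2 UMI, and their level was 30.5 CPM. Cox6a1 had 516 and 492 CPM in these cells. This split was made after the values were seen.

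Lower levels of Cox6a2 were found elsewhere. The Atp1b1-led pro-B and pre-B-like cells had 48.4 CPM, with a UMI in 32 of 405 cells, and the Ms4a1-led B cell-like cells 26.9 CPM, in 9 of 197 cells. The Cd74-led B cell-like cells had 0 UMIs in 587 cells, which allows a share of cells with a UMI, not of cells expressing the gene, of up to 0.511% (3 cells of the total), at median depths of 1824, 2171 and 1840 UMIs. In the Dntt/Cpa3/Flt3 cluster 16 of 80 cells of LSK (49.0 CPM) and 49 of 749 cells of LK (7.90 CPM) had a UMI, with the parts of that cluster given above, and in the F13a1/Irf8 cluster 65 of 847 cells (5.07 CPM). Stem-like LSK cells had 1 UMI, and stem-like, erythroid progenitor-like, megakaryocyte lineage-like and mast cell and basophil-like LK cells had 0. Cox6a2 lies at chr7:128205435-128206387 on the minus strand, inside the span of Itgad on the other strand.

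**Figure D5:**
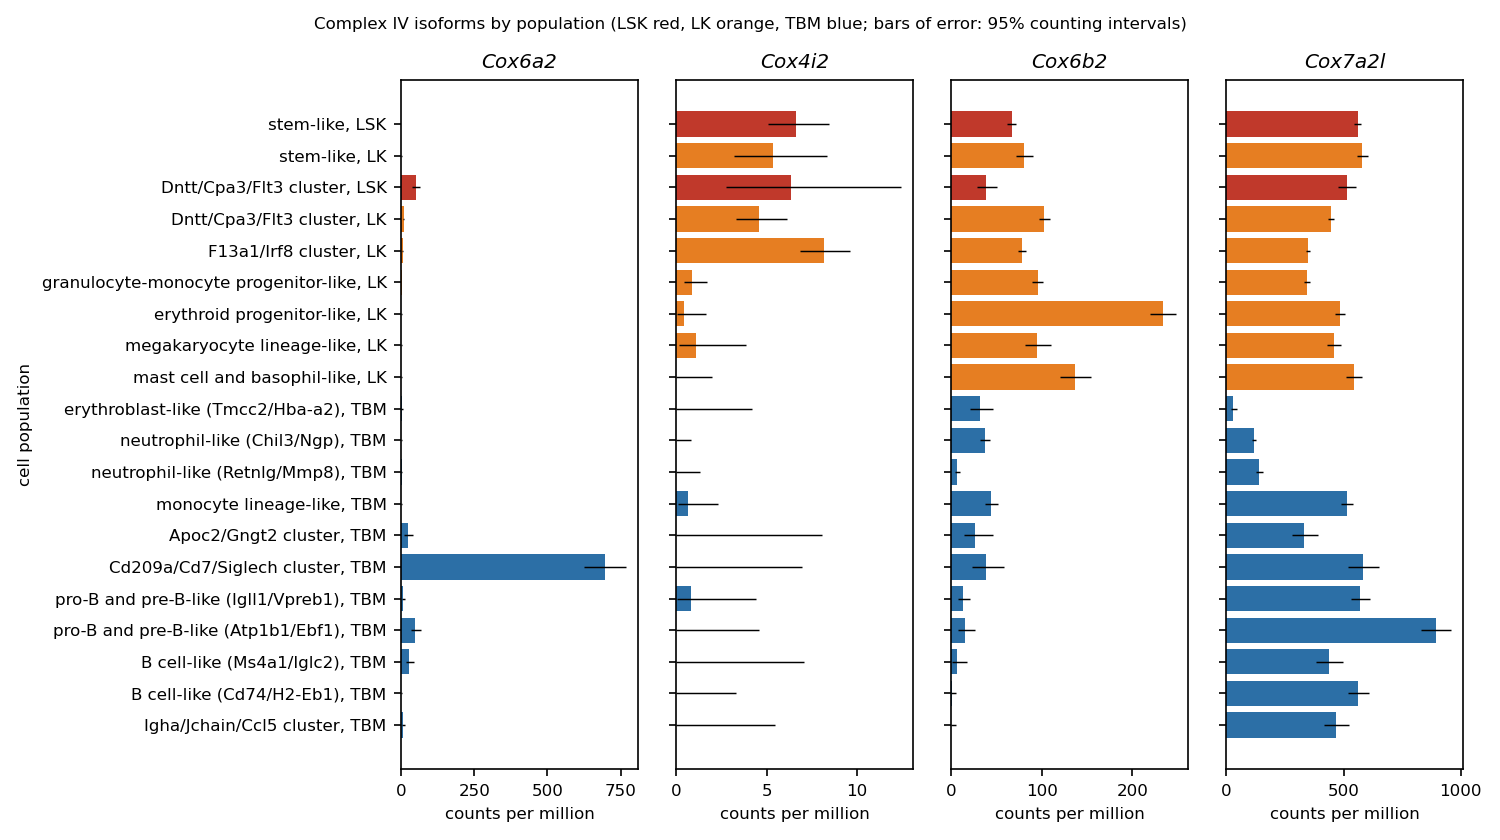
Levels of Cox6a2, Cox4i2, Cox6b2 and Cox7a2l by population, in CPM, with a scale of its own for each gene, bars coloured by library and lines for 95% counting intervals. Cox6a2 is highest in the Cd209a/Cd7/Siglech cluster of TBM and Cox6b2 in erythroid progenitor-like LK cells.

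Cox6b2, whose promoter window is printed above, was highest in erythroid progenitor-like LK cells, at 234 CPM, with a UMI in 66.1% of cells, or 20.1% with each cell thinned to 1000 UMIs. It had 136 CPM in mast cell and basophil-like, 95.4 CPM in granulocyte-monocyte progenitor-like and 80.4 CPM in stem-like LK cells, and 66.5 CPM in stem-like LSK cells. Of the TBM populations described, the monocyte lineage-like cells had the most, 44.0 CPM, followed by the Cd209a/Cd7/Siglech cells with 37.8 CPM. The Chil3-led and Retnlg-led neutrophil-like cells had 36.6 and 6.12 CPM, and the Cd74-led B cell-like cells 1 UMI (0.170% of cells). The Tmcc2-led erythroblast-like cells had 31.8 CPM. There Cox6b2 made up 23.9% of the UMIs of Cox6b1 and Cox6b2, against 28.6% in erythroid progenitor-like LK cells. The lowest population of LSK and LK was the Dntt/Cpa3/Flt3 cluster of LSK, with 37.9 CPM (28.0 to 50.3), whose interval overlaps that of the Chil3-led cells (31.2 to 42.6). With another random seed of the clustering, the share of erythroid progenitor-like LK cells with a UMI was 88.5%, in a cluster of 157 LK cells in place of 498. Over its cells of all libraries, that cluster had a median of 16507 UMIs, against 6885.5 in the main one. The cause of this move was not tested.

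Cox4i2, an alternative form of subunit IV known from lung, was low throughout, at 8.16 CPM in the F13a1/Irf8 LK cluster and 6.61 CPM in stem-like LSK cells, with 140 and 64 UMIs. It had 0.889 CPM in granulocyte-monocyte progenitor-like and 0.451 CPM in erythroid progenitor-like LK cells. Cox7a1, the heart and skeletal muscle form of subunit VIIa, reached at most 7.12 CPM, from 9 UMIs in the Igll1-led pro-B and pre-B-like cells, while its common partner Cox7a2 had 346, 445 and 432 CPM in LSK, LK and TBM. Cox7a2l ran from 29.5 CPM in the Tmcc2-led erythroblast-like cells to 893 in the Atp1b1-led pro-B and pre-B-like cells. It had 560.0 CPM in stem-like LSK cells, 349 in the F13a1/Irf8 cluster, and 118 and 140.1 in the neutrophil-like populations.

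The ring of ATP synthase is encoded by Atp5g1, Atp5g2 and Atp5g3, whose mature proteins are the same. Atp5g1 had 416 CPM in stem-like LSK cells, 917 in erythroid progenitor-like and 896 in F13a1/Irf8 LK cells. Atp5g2 had 706, 801 and 747 CPM in the same populations, and Atp5g3 223, 254 and 296 CPM. Atp5g1 therefore differed more between these populations than its partners. Of the 95 members, 25 share their 3′ end with another annotated gene at 98% identity or more, so their counts are less certain. They include Atp5g1, Atp5g2, Ndufab1, mt-Co1 and mt-Atp6, whose copies are not themselves among the genes in the counts. Cox6a2, Cox6b2, Cox7a2l, Ndufa3 and mt-Atp8 are not among those 25 members.

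Cells with over 10% of mitochondrially encoded UMIs numbered 21, 82 and 21 in LSK, LK and TBM and held 2.35, 3.12 and 2.38% of each library's mitochondrially encoded UMIs. Nuclear members took 1.17, 1.92 and 1.91% of their other UMIs, against 2.64, 3.30 and 2.23% in the remaining cells. Their median depth was 908, 971.5 and 1643 UMIs, and the nuclear RNA Malat1 took 6.07, 5.06 and 2.24% of their other UMIs, against 1.23, 0.556 and 1.10%. The Gm26917/Lars2/Gm42418 population of LK had 1.13% and 38.9% of nuclear and mitochondrially encoded UMIs, and 56 of its 58 cells were over 10%.

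Other genes of the pathway were counted by list. Between LSK and LK, 0 of 4 complex II genes, 0 of 14 complex I assembly factors, 0 of 15 genes of the citric acid cycle and 0 of 78 mitochondrial ribosomal protein genes were at least 2-fold apart, with median log2 ratios of -0.29, -0.10, -0.26 and -0.36, where 23.7% of all genes were that far apart. Of 15 glycolysis genes and 19 complex IV assembly factors, 1 each was at least 2-fold higher in LSK and 0 lower. The regulators of mitochondrial biogenesis had 8 of 9 measured genes above 0, with a median of 0.32 and 0 at least 2-fold apart, beside a median of all genes of 0.34. Between LK and TBM, 3, 9, 9 and 40 genes of complex II, complex I assembly, the citric acid cycle and the mitochondrial ribosome were at least 2-fold higher in LK and 0 lower, against 27.3% and 16.7% of all genes, with medians of 1.20, 1.19, 1.06 and 1.02. Of 15 glycolysis genes 7 were at least 2-fold higher in LK than in TBM (median 0.96). Of 83 measured cytosolic ribosomal protein genes, 49 were at least 2-fold higher in LK and 1 lower (median 1.05). The lists were counted on total UMIs only, not without the calprotectin, globin and immunoglobulin genes, which held 21.8% of UMIs in TBM. Among 7 measured carriers and uncoupling proteins, Slc25a5, an ADP/ATP carrier, had 1134, 1645 and 596 CPM, in the order LSK, LK, TBM, and Ucp2, a mitochondrial inner membrane carrier, had 207, 212 and 607 CPM. Of that list, 4 of 7 genes were at least 2-fold higher in LK than in TBM (median 1.20), and Ucp2 was the 1 gene at least 2-fold higher in TBM.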

How the data were processed

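Single-cell libraries of LSK, LK and TBM cells were made with the 10x Genomics 3′ kit v2 and sequenced on an Illumina NovaSeq. The authors deposited raw UMI counts per gene and barcode, made with Cell Ranger 4.0.0 and build mm10 per the submitters' processing notes, and the sources used here do not give the annotation release or other settings. No columns had to be left unmapped.

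Barcodes with under 200 genes and Scrublet doublets were removed. Cells were normalised and clustered with scanpy 1.11.5 and leidenalg 0.10.2 (2000 variable genes, 30 components, 15 neighbours, resolution 1), without the member, cytosolic ribosomal, cell cycle, receptor segment, sex-linked and gate genes. A cluster took the name of the marker list with the highest mean score where at least 3 of its markers were detected in 10% of cells, at least 1 was among the 10 leading genes, and no other list held more of those genes, or as many with the first. One population of at least 50 cells is not reported here. The naming left 6 of 21 clusters unnamed, with 9.99%, 46.8% and 8.79% of LSK, LK and TBM cells.

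UMIs were summed over cells and divided by the total to give CPM, with exact Poisson intervals, exact conditional binomial intervals for log2 ratios and Clopper-Pearson intervals for shares, and for a share of 0 the limit is 3 cells of the total. Genes with at least 20 UMIs in a pair were counted as measured, and for 2-fold calls and list medians a sum under 3 UMIs was set to a floor of 3. Copies were sought by comparing the last 300 bases of transcripts with BLAST+ 2.17.0, counting matches of at least 90 bases. The scripts were tested on simulated data.

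Named were all mitochondrially encoded members, the 2 most abundant nuclear members of each complex by mean CPM over the libraries, members with the largest library ratios among those with at least 200 UMIs, the tissue isoforms with their partners and the members varying most by class. Other members were named after their values were seen: those at the ends of population comparisons, those higher in LSK than LK, and the role groups. Members and lists were chosen with earlier results of these data known. Alternatives changed the scaling, the weighting of cells, the 10% mitochondrial limit, doublets, resolution, depth and the UMI minimum.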

Additional observations from a re-analysis of the deposited data

How the results depend on the processing

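Each value was recomputed under other settings. Of 77 such values, 43 moved by less than the counting interval or, for counts, by less than 1.5 times, 31 moved more and 3 reversed, and the cause was not tested. With size factors, the nuclear sums were -0.71 for LSK over LK (from -0.32), 0.21 for LK over TBM (from 0.55) and, reversed, -0.50 for LSK over TBM (from 0.23), and 9 members of LSK over LK (from 1) and 5 of LK over TBM (from 20) were at least 2-fold apart. Without the calprotectin, globin and immunoglobulin genes, the nuclear sums were 0.20 for LK over TBM and, reversed, -0.12 for LSK over TBM, and 5 and 3 members (from 7) were at least 2-fold apart. With each cell weighted equally, the nuclear sums were -0.29, 0.60 and 0.31 for LSK over LK, LK over TBM and LSK over TBM. The log2 balance ratios of nuclear to mitochondrially encoded UMIs (from -0.37, 0.13 and -0.25) were then -0.21, -0.10, which is reversed, and -0.32. With at most 10% of mitochondrially encoded UMIs per cell, the balance was -0.39 for LSK over LK and 0.14 for LK over TBM. Without the Gm26917/Lars2/Gm42418 cluster it was -0.39, 0.16 and -0.23.

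The nuclear sum of granulocyte-monocyte progenitor-like LK over stem-like LSK cells (0.45) was 0.41 at resolution 2, 0.41 with the 10% limit and 0.50 as a median over cells thinned to 1000 UMIs. At resolution 2 the largest clusters of these names held 449 LK and 513 LSK cells, in place of 504 and 935. The cluster led by Prg2, Elane and Ms4a3 was then unnamed, so that value compares other cells. With the 10% limit they held 500 and 715 cells. The share of erythroid progenitor-like LK cells with a Cox6b2 UMI (66.1%) was 20.1% thinned to 1000 UMIs, 59.9% at resolution 2 and 88.5% with another seed. Leaving out the Gm26917/Lars2/Gm42418 cluster, leaving out shared barcodes, the other seed, the medians over neutrophil-like cells and the split of the Dntt/Cpa3/Flt3 cluster were chosen after seeing the data. No paired analysis was possible because each group is 1 library. Cluster membership changed with the seed, so values by population hold for these clusters only. Low members such as Cox4i2 and Cox7a1 rest on few UMIs in most populations.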
